A study of Mus musculus with 9 samples.

Results

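The transcripts described here are those of 6 STAT genes, Stat2, Stat3, Stat4, Stat5a, Stat5b and Stat6, which were taken by symbol from a table of 23415 genes. All 6 were present and all 6 passed the filter on low values. They were measured by bulk RNA sequencing of CD4+ T cells sorted from the lamina propria of the colon in T cell transfer colitis, a model in which naive T cells given to mice without lymphocytes cause disease of the large intestine. Naive CD4+CD25-CD45RBhigh T cells came from CD160 knockout donors or from their wildtype littermates, and every recipient was a Rag1-/- mouse, which makes no T or B cells of its own and keeps its myeloid cells. At the peak of disease 5000 CD4+ T cells were sorted per sample, giving 4 knockout and 5 control libraries. CD160 is a surface receptor found on lymphocytes. The part of Cd160 that was deleted and the age and sex of the mice are not given in the sources used here. The table also has an entry for the reporter tdTomato, at 2.52 to 8.78 TPM in the controls and 0 in every knockout; what it marks is not given in the sources used here. Whether each library stands for its own recipient mouse is not stated, and p-values then measure only the spread between these libraries, which may be technical.

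STAT proteins carry cytokine signals from the cell surface to the nucleus. A cytokine joins its receptor chains, the Janus kinases bound to them phosphorylate the receptor and then a STAT, and the STAT pairs with another through its SH2 domain and binds DNA. In T cells STAT4 serves IL-12 and the Th1 program, STAT3 serves IL-6, IL-21 and IL-23 and the Th17 program, STAT5A and STAT5B serve IL-2 and IL-7, STAT6 serves IL-4, and STAT2 works with IRF9 in the response to type I interferon. This activity lies in the phosphorylated protein and is not measured by transcript levels.

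The genes lie at 3 places in the mouse genome (GRCm38, GENCODE M21 coordinates). Stat4 lies on chromosome 1, from 51987148 to 52107189 on the plus strand. Stat6 spans 127642986 to 127660957 and Stat2 spans 128270559 to 128292849 on chromosome 10, both on the plus strand. Stat5b (100780731 to 100850724, minus strand), Stat5a (100859351 to 100885169, plus strand) and Stat3 (100885098 to 100939540, minus strand) follow each other on chromosome 11. Stat5b and Stat5a are 8626 bases apart, and the ends of Stat5a and Stat3 overlap by 72 bases on opposite strands, where an unstranded library cannot assign reads to either gene. A transcript annotated on the same strand as Stat4 overlaps it over 29929 bases. Of the 38-base words of the Stat4 transcripts, 38 being the length of each read, 22.9% also occurred in genes other than the 6.

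Stat5a and Stat5b are shown side by side because their similarity bears on how reads were divided between them. Their longest annotated coding sequences were identical at 2080 of 2294 aligned bases, or 90.7%, against 53.8% to 61.3% for the other 14 pairs of members. The longest identical run was 324 bases, coding bases 571 to 894 in both genes. The 2 sequences below give the last 40 bases of that run and the 80 bases after it, with the base that differs in capitals.
Stat5a: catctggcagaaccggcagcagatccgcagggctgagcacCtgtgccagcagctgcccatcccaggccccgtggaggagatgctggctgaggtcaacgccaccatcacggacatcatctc
Stat5b: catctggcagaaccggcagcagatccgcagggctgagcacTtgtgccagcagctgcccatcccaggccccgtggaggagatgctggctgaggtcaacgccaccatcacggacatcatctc
The 120-base window with the most differences, coding bases 45 to 164, held 33 of them, again in capitals.
Stat5a: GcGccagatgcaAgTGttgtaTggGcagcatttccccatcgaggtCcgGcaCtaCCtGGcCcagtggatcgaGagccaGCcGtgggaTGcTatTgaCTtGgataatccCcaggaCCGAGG
Stat5b: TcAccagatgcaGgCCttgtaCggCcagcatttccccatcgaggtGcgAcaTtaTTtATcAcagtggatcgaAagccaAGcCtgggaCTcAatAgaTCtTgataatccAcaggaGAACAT
Of the 38-base words in the coding sequence, 31.6% of those of Stat5a and 32.1% of those of Stat5b occurred in the other gene. The other pairs shared none. The division of reads between Stat5a and Stat5b is therefore uncertain, and their sum is given beside the single values.

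One control library stood apart from the other 8. In control replicate 1, 7308 genes reached 1 TPM, against 11088 to 11711 in the others, and the 6 STAT genes together held 21.2 TPM in it, against 256 to 392 TPM. Cd160 was lower in every knockout library, at 5.44 to 18.8 TPM, than in any control, at 31.8 to 212 TPM. Markers of T cells (9 genes, among them Cd3e, Cd3g, Trac and Lck) were present, with a summed level of 4568 to 5937 TPM in knockouts, 5481 to 6540 TPM in control replicates 2 to 5 and 1897 TPM in control replicate 1. Macrophage markers (12 genes, led by Apoe, Lyz2 and C1qb) had higher means in the knockouts than in control replicates 2 to 5 for 12 of 12 genes. Their summed levels were 12780, 16742, 29447 and 30313 TPM in knockout replicates 1 to 4 and 18477, 5034, 11146 and 4655 TPM in control replicates 2 to 5, with 1509 TPM in control replicate 1. None of these macrophage markers was at 0 in all libraries. The 8 B and plasma cell markers summed to 48.4 to 74.4 TPM in knockouts, to 14.3 to 26.9 TPM in control replicates 2 to 5 and to 61.6 TPM in control replicate 1. Igkc, an immunoglobulin light chain, made up most of this in knockouts, at 31.6 to 60.2 TPM against 7.64 to 24.0 TPM in control replicates 2 to 5. Cd79b was at 2.29 to 12.7 against 1.51 to 8.06 TPM, and Sdc1 at 1.97 to 11.8 against 0.73 to 1.85 TPM. The B cell markers Ms4a1 and Pax5 were at 0 in all libraries. Apart from a fit with the macrophage markers as a covariate, given below, the part of these markers in the STAT levels was not tested. In bulk RNA fewer cells of a type and less RNA per cell cannot be told apart.

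The 6 genes formed an abundant and a less abundant set. TPM is corrected for transcript length, so levels of different genes can be ordered. In the knockouts Stat3 was highest, at 111 ± 10.6 TPM, followed by Stat6 at 87.6 ± 11.5 and Stat4 at 85.7 ± 11.6 TPM (SD, n = 4). Stat5a at 25.4 ± 2.6, Stat2 at 21.4 ± 1.13 and Stat5b at 19.7 ± 0.915 TPM formed the lower set (SD, n = 4). In control replicates 2 to 5 the same sets were seen, with Stat3 at 97.5 ± 19.6, Stat4 at 95.5 ± 12.5 and Stat6 at 76.8 ± 9.52 TPM above Stat5a at 19.8 ± 2.99, Stat5b at 18.7 ± 4 and Stat2 at 18 ± 3.06 TPM (SD, n = 4). Every gene of the upper set was above every gene of the lower set in all 9 libraries. Within the upper set Stat3 was above Stat6 in 9 of 9 libraries. Stat3 was above Stat4 in 4 of 4 knockouts and 2 of 5 controls, and Stat4 was above Stat6 in 1 of 4 knockouts and 5 of 5 controls, so the place of Stat4 varied. Within the lower set Stat5a was above Stat2 in 8 of 9 libraries, and Stat5a and Stat2 were each above Stat5b in 4 of 4 knockouts and 3 of 5 controls.

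**Figure D1:**
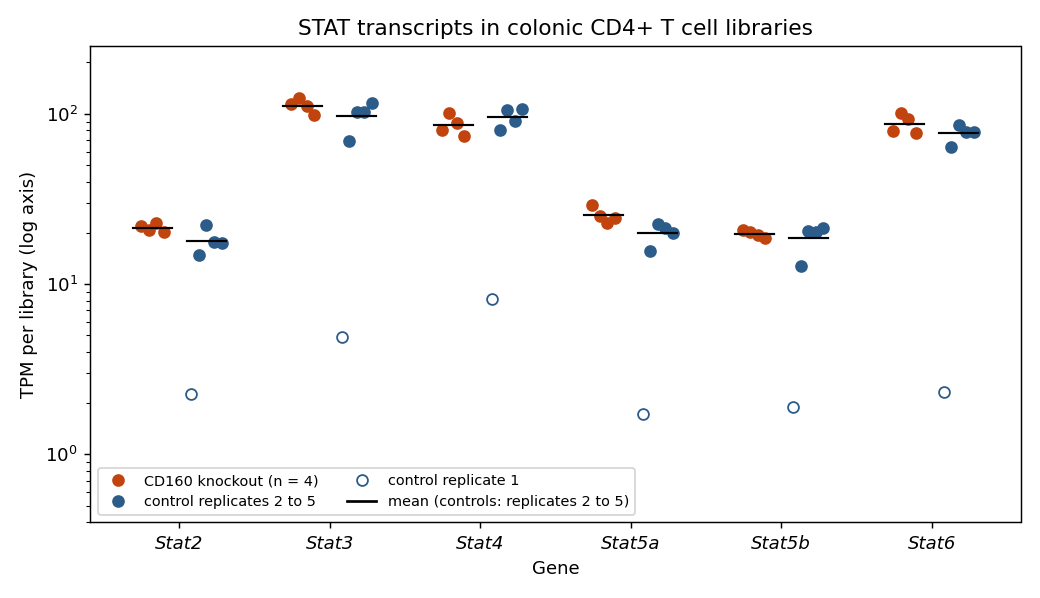
TPM of the 6 STAT genes in each library on a log axis, knockouts in orange and controls in blue; bars are means, for controls of replicates 2 to 5. Stat5a is the gene whose 4 knockout points lie above all controls, and control replicate 1 (open circle) lies between 1.72 and 8.13 TPM for every gene.

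Stat5a, which with Stat5b transmits IL-2 and IL-7 signals, was the 1 member whose groups did not overlap. Knockouts 1 to 4 held 29.0, 25.2, 22.8 and 24.6 TPM, and controls 1 to 5 held 1.72, 15.6, 22.4, 21.4 and 19.9 TPM. The lowest knockout lay 0.39 TPM above the highest control. Of all 11495 genes tested, 3.88% had every knockout above every control and 1.05% every knockout below; without control replicate 1 these shares were 4.01% and 3.01%. The log2 difference (knockout minus control, taken on log2(TPM + 1)) was 0.93 (standard error 0.63, limma adjusted p 0.745). Without control replicate 1 it was 0.35 (standard error 0.14, 95% interval 0.037 to 0.66), with a limma p of 0.0322 before and 0.329 after adjustment. By exact permutation (two-sided), p was 0.0159 with 9 libraries and 0.0286 with 8, the smallest that these group sizes allow. Any gene whose groups do not overlap has this p, so it adds nothing to the separation. After adjustment the exact permutation p with 9 libraries was 0.322. Stat5a missed the adjusted threshold in both limma fits. When a second library was left out beside control replicate 1, the unadjusted limma p stayed under 0.05 in 3 of 8 fits. Without control replicate 2 the difference was 0.24 (unadjusted limma p 0.0665), and without knockout replicate 1 it was 0.29 (unadjusted limma p 0.0887).

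Stat5b did not share this separation. Its levels were 20.7, 20.2, 19.4 and 18.6 TPM in knockouts 1 to 4, and 1.90, 12.8, 20.6, 20.2 and 21.4 TPM in controls 1 to 5. The knockouts thus lay inside the control range. The log2 difference was 0.64 (standard error 0.61), and 0.095 without control replicate 1 (standard error 0.16, 95% interval -0.28 to 0.47, limma adjusted p 0.881); when control replicate 2 was left out as well it was -0.07. The ratio of Stat5b to Stat5a within a library was 0.780 ± 0.0582 in knockouts (SD, n = 4) and 0.972 ± 0.118 in controls (SD, n = 5), or 0.938 ± 0.105 without control replicate 1 (SD, n = 4). It overlapped between the groups: knockout replicate 3 at 0.849 lay above control replicate 2 at 0.818. The sum of both genes was 45.1 ± 3.32 TPM in knockouts and 38.6 ± 6.82 TPM in control replicates 2 to 5 (SD, n = 4 each). The sum overlapped between the groups, with the lowest knockout at 42.2 TPM and the highest control at 43.0 TPM. The log2 difference of the sum without control replicate 1 was 0.24 (standard error 0.14, limma adjusted p 0.548).

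Stat4, the transducer of IL-12 in Th1 cells, was the 1 member with a lower mean in the knockouts once control replicate 1 was left out. Its level in knockouts 1 to 4 was 79.9, 100.8, 88.0 and 74.0 TPM. In controls 1 to 5 it was 8.13, 80.1, 105, 90.5 and 106 TPM. The groups overlapped, and the 2 highest controls, replicates 3 and 5, were also those with the highest Cd8a, at 81.2 and 86.1 TPM against 3.06 to 23.9 TPM in the other libraries. The other marker of CD8 T cells, Cd8b1, did not follow: it was at 4.42 and 1.31 TPM in those controls and highest in knockout replicate 4, at 9.88 TPM. The cells had been sorted for CD4, and the part of these 2 markers in the Stat4 level was not tested. The log2 difference was 0.52 with 9 libraries (standard error 0.70) and -0.16 without control replicate 1 (standard error 0.13, 95% interval -0.44 to 0.13, limma adjusted p 0.676). With median-of-ratios scaling of the 9 libraries the difference was -0.060.

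Stat3, which responds to IL-6, IL-21 and IL-23, was found at 114, 124, 111 and 97.8 TPM in knockouts 1 to 4. The 5 controls gave 4.88, 69.4, 103, 102 and 115 TPM, in the same order. Control replicates 3 to 5 lay within the range of the knockouts and control replicate 2 below it. The log2 difference was 1.02 (standard error 0.81), and 0.21 without control replicate 1 (standard error 0.15, limma adjusted p 0.635). When control replicate 2 was left out as well it was 0.058.

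Stat6, the transducer of IL-4, was found at 79.3, 101, 93.2 and 76.7 TPM in knockouts 1 to 4. Controls 1 to 5 had 2.33, 63.6, 86.4, 78.6 and 78.6 TPM. The groups overlapped, with 3 controls inside the knockout range. The log2 difference was 1.09 (standard error 0.89), and 0.19 without control replicate 1 (standard error 0.13, limma adjusted p 0.598). With control replicate 2 or knockout replicate 2 left out as well it was 0.10 or 0.12. Stat6 had the largest gap between control replicate 1 and the other controls, whose mean was 33.0 times its value.

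Stat2, the partner of IRF9 in interferon signalling, was measured at 21.8, 20.8, 22.8 and 20.2 TPM in knockouts 1 to 4. Its values in controls 1 to 5 were 2.26, 14.8, 22.1, 17.7 and 17.4 TPM. A single control, replicate 3, reached the knockout range. The log2 difference was 0.75 (standard error 0.57), and 0.25 without control replicate 1 (standard error 0.13, 95% interval -0.052 to 0.55, limma adjusted p 0.493). With control replicate 2 left out as well it was 0.16. Its exact permutation p was 0.0635 with 9 libraries and 0.114 with 8.

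As a set, 0 of the 6 genes passed an adjusted p of 0.05 in either limma fit, where 0.0174% of all genes passed with 9 libraries and 0.0262% without control replicate 1. At an unadjusted p under 0.05, 0 of 6 passed with 9 libraries, where 6.39% of all genes did, and 1 of 6, Stat5a, without control replicate 1, where 12.8% of all genes did. With median-of-ratios scaling the count was 1 of 6 with 9 libraries (Stat5a, unadjusted limma p 0.0410). Without control replicate 1 it was 3 of 6 (Stat5a 0.0194, Stat2 0.0459 and Stat6 0.0473), and none passed after adjustment. The share of all genes under this scaling was not computed, so these counts cannot be set against 6.39% and 12.8%. With 9 libraries all 6 differences were positive, as were 86.7% over all genes, and their median was 0.84 against 0.46 over all genes. Without control replicate 1, 5 of 6 were positive, against 47.5% of all genes, and their median was 0.20 against -0.014. Control replicate 2 had the lowest value of the 8 other libraries for 5 of the 6 genes, Stat4 being the exception. When the mean of the macrophage markers entered the fit of the 8 libraries as a covariate, the log2 differences were 0.58 for Stat5a, 0.49 for Stat3, 0.38 for Stat2, 0.36 for Stat5b, 0.28 for Stat6 and 0.01 for Stat4, and none was called. All 6 were higher than without the covariate, and that of Stat4 changed sign, from -0.16.

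**Figure D2:**
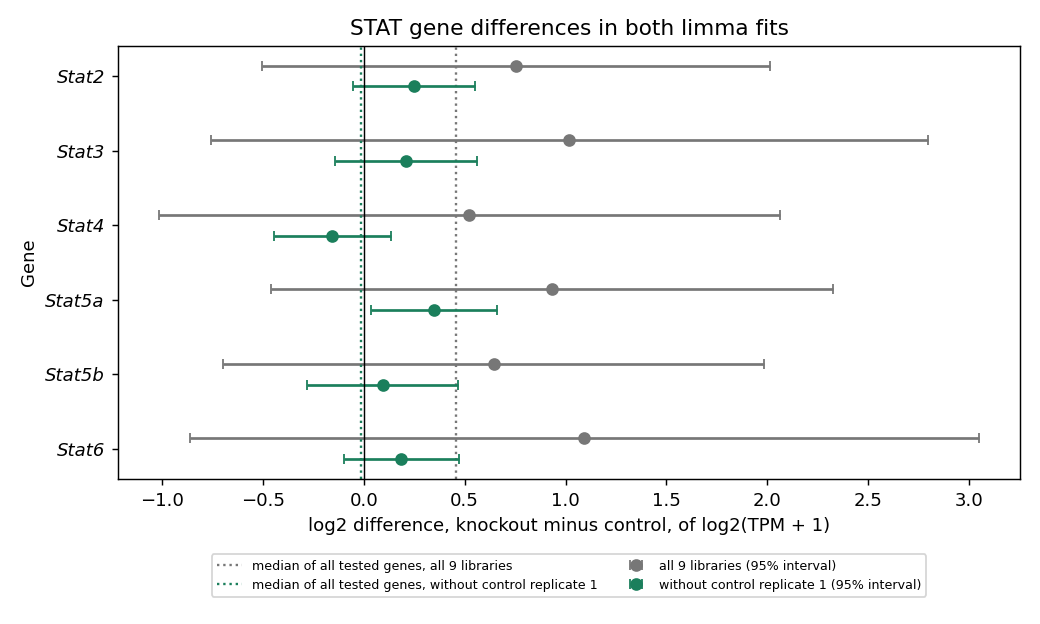
Log2 differences of log2(TPM + 1), knockout minus control, with 95% intervals from limma for 9 libraries (grey) and without control replicate 1 (green); dotted lines are the medians of all tested genes, 0.46 and -0.014. Without control replicate 1 the intervals are narrower, Stat4 lies below 0 and the interval of Stat5a alone stays above 0.

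Ratios between members within a library do not depend on how that library was scaled. They were compared after the levels had been seen, and carry no test. Of the 15 pairs of members, 3 had ratios that did not overlap between the groups, and all 3 were among the 5 pairs with Stat4. The ratio of Stat6 to Stat4 was 0.992, 1.00, 1.06 and 1.04 in knockouts 1 to 4. In controls 1 to 5 it was 0.287, 0.794, 0.819, 0.868 and 0.742, below all knockouts. The ratio of Stat3 to Stat4 was 1.42, 1.23, 1.26 and 1.32 in the knockouts and 0.600, 0.866, 0.977, 1.13 and 1.09 in the controls. The ratio of Stat5a to Stat4 was 0.363, 0.250, 0.259 and 0.332 in the knockouts and 0.212, 0.195, 0.213, 0.237 and 0.188 in the controls. The ratios of Stat2 and Stat5b to Stat4 overlapped. Stat4, the denominator, shared 22.9% of its 38-base words with genes outside the 6, and the part of this in the ratios was not tested. Over all tested genes, 3.83% had a ratio to Stat4 with the knockouts above all controls and 0.731% below; without control replicate 1 the shares were 6.33% and 0.96%.

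**Figure D3:**
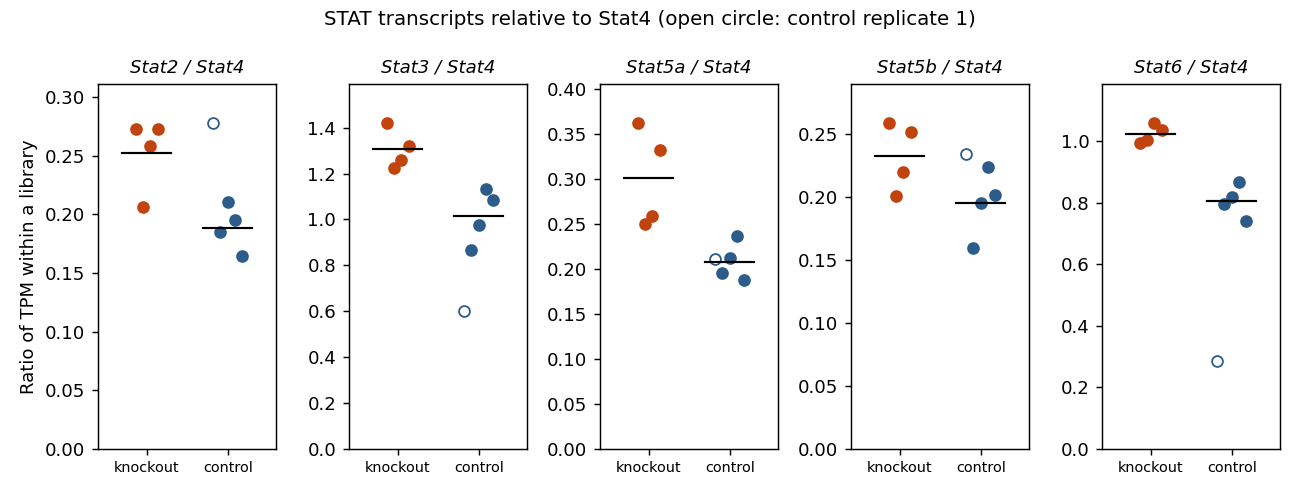
Ratio of the TPM of each other STAT gene to that of Stat4 within each library, with bars at the mean of the knockouts and of control replicates 2 to 5; each panel has its own axis from 0. For Stat3, Stat5a and Stat6 every knockout lies above every control, while Stat2 and Stat5b overlap.

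The members were also set against T cell markers. Per 1000 TPM of the 9 summed T cell markers, Stat4 came to 16.1, 17.0, 17.7 and 16.2 in knockouts 1 to 4, and to 14.6, 16.9, 14.9 and 16.2 in controls 2 to 5; the groups overlapped, with the higher mean in the knockouts. Stat6 stood at 15.9 to 18.7 in knockouts against 11.6 to 13.9 in those controls, and Stat3 at 20.8 to 22.8 against 12.7 to 17.6. Stat5a stood at 4.25 to 5.82 against 2.85 to 3.60, and Stat5b at 3.41 to 4.15 against 2.33 to 3.32. Stat2 overlapped, at 3.50 to 4.57 against 2.66 to 3.56. For Stat3, Stat5a, Stat5b and Stat6 the knockouts lay above all controls, as they did for 15.5% of all tested genes without control replicate 1 and 14.1% with it. The knockouts lay below all controls for 0.402% and 0.279%. Of the T cell markers, 1 of 9 had a higher mean in the knockouts than in control replicates 2 to 5. Macrophage markers, given above, had higher means in the knockouts, but their sum in control replicate 2 lay above that in knockout replicates 1 and 2. Their part in these ratios was not tested.

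Genes that followed each member most closely were found by the root mean square distance between deviations from the own mean, on the log2(TPM + 1) scale, over the 8 libraries without control replicate 1, among 10314 protein-coding genes. For Stat4 these were Gcc2 at 0.030, Cd6, a surface receptor of T cells, at 0.037 and Chtop at 0.041, against a median distance of 0.23. For Stat5a they included N4bp1 at 0.053 and Uhrf1bp1 at 0.086. For Stat3 they were Slc26a2, Ykt6 and Caprin1 at 0.064 to 0.074, for Stat5b Mlec, Cyb5b and Cflar at 0.052 to 0.065, for Stat6 Cpne8, Fem1b and Tmem184b at 0.043 to 0.056, and for Stat2 Lmntd2, Zpr1 and Tnfrsf1b at 0.069 to 0.072. Among the members Stat3 and Stat5b were closest, at 0.087; Stat5b was the 14th nearest gene to Stat3. Stat4 had no close member: the nearest, Stat6, at 0.18, took place 3050. Genes that vary little are near to any other such gene by this measure.

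Upstream of the STATs, of the 4 Janus kinases, 0 were called in either fit, and their median difference without control replicate 1 was 0.08 against -0.014 over all genes. Jak1, which serves most of these receptors, had 134, 143, 121 and 98.7 TPM in knockouts 1 to 4, and 7.19, 57.9, 128, 121 and 140 TPM in controls 1 to 5. Jak3, the kinase of the common gamma chain, stood at 98.2 to 147 TPM in knockouts and at 103 to 159 TPM in control replicates 2 to 5. Jak2 stood at 8.55 to 13.8 against 7.75 to 13.3 TPM, and Tyk2 at 33.9 to 46.8 against 28.7 to 45.3 TPM. The groups overlapped for each kinase, and control replicate 2 was the lowest of the 8 libraries for Jak1, Jak2 and Tyk2.

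Among receptor chains that signal through these kinases, 0 of 21 were called in either fit. Without control replicate 1, 13 were positive and 8 negative, where 47.5% of all genes were positive, with a median of 0.12 against -0.014 over all genes, and 6 had an unadjusted p under 0.05, all higher; of all genes 8.44% had one and were higher, and 4.41% had one and were lower. Il10ra, the ligand-binding chain of the IL-10 receptor, was at 84.7 ± 9.2 TPM in knockouts and 45.3 ± 12.1 TPM in control replicates 2 to 5 (SD, n = 4 each), a log2 difference of 0.92 (limma adjusted p 0.117). Il4ra, the IL-4 receptor chain that recruits STAT6, was at 63.6 ± 9.7 and 41.4 ± 6.3 TPM, a log2 difference of 0.61 (adjusted p 0.154). Il6ra, which binds IL-6, was at 10.7 ± 1.86 and 4.24 ± 2.61 TPM, a log2 difference of 1.28 (adjusted p 0.17). Macrophages also express these chains, and the part of the macrophage markers given above in these values was not tested.

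Of the 16 inhibitors of the pathway, 0 were called without control replicate 1, and 8 were positive, near the 47.5% of all genes, with a median of -0.015. An unadjusted p under 0.05 was reached by 3 of 16, all higher, against 8.44% of all genes higher and 4.41% lower. Socs3, a feedback inhibitor induced by STAT3, was at 169 ± 30.0 TPM in knockouts and 91.5 ± 27.3 TPM in control replicates 2 to 5 (SD, n = 4 each), a log2 difference of 0.91 (limma adjusted p 0.154). Socs1, a feedback inhibitor of interferon signalling, and the phosphatase Ptpn6 had log2 differences of 0.60 and 0.22 (limma adjusted p 0.37 and 0.329).

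Targets of each STAT were listed separately. None of their genes was called in either fit, and the lists were chosen with earlier results of these data known. In the list of Irf9 and interferon targets, which answer to STAT2, 14 of 15 differences were positive without control replicate 1, against 47.5% over all genes, with a median of 0.88 against -0.014. An unadjusted p under 0.05 was reached by 9 of 15, all higher, against 8.44% of all genes higher and 4.41% lower. Oas2, Oasl1 and Oasl2, of the oligoadenylate synthetase family of antiviral genes, had log2 differences of 1.26, 1.7 and 1.59 (limma adjusted p 0.103, 0.131 and 0.131). Oas2 stood at 3.27 to 5.66 TPM in knockouts and 0.62 to 1.73 TPM in control replicates 2 to 5, and Oasl1 at 3.19 to 8.09 against 0 to 2.05 TPM. Both reached the filter of 1 TPM in 4 libraries only with knockouts counted, so they cannot serve as support. Oasl2 stood at 9.44 to 28.0 against 2.27 to 6.18 TPM. For Stat2 itself the difference was 0.25. The macrophage markers given above also had higher means in the knockouts than in control replicates 2 to 5, and their part in the interferon list was not tested. The medians of the other lists were -0.057 for 13 STAT3 targets, -0.10 for 9 STAT4 targets, 0.01 for 10 STAT5 targets and 0.01 for the 5 tested of 8 STAT6 targets.

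Of the STAT3 targets, Socs3, given above among the inhibitors, had a log2 difference of 0.91 (limma adjusted p 0.154). Hif1a, a factor of the response to low oxygen, had 0.65 (limma adjusted p 0.306), and Il23r, a receptor chain for IL-23, had -0.30 (adjusted p 0.766). Of the STAT4 targets, Hlx, a homeobox factor of Th1 cells, had 1.3 (adjusted p 0.114), while Ifng had -0.44 and Il12rb2 -0.43 (adjusted p 0.572 and 0.628). Hlx stood at 2.72 to 5.76 TPM in knockouts and 0.61 to 1.56 TPM in control replicates 2 to 5. It reached the filter only with knockouts counted. Of the STAT5 targets, Xbp1, a factor of the unfolded protein response, was at 133 ± 8.9 TPM in knockouts and 90.8 ± 6.81 TPM in control replicates 2 to 5 (SD, n = 4 each), a log2 difference of 0.54 (limma adjusted p 0.103). The survival kinase Pim2 had -0.40 and the cytokine Osm 0.95 (adjusted p 0.359 and 0.417). Of the STAT6 targets, Il4 was at 2.72 ± 1.56 TPM in knockouts and 10.5 ± 6.39 TPM in control replicates 2 to 5 (SD, n = 4 each), a log2 difference of -1.55 (limma adjusted p 0.194). Gata3, the Th2 factor, had -0.28 (adjusted p 0.663), opposite in sign to the 0.61 of Il4ra in the same list.

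**Figure D4:**
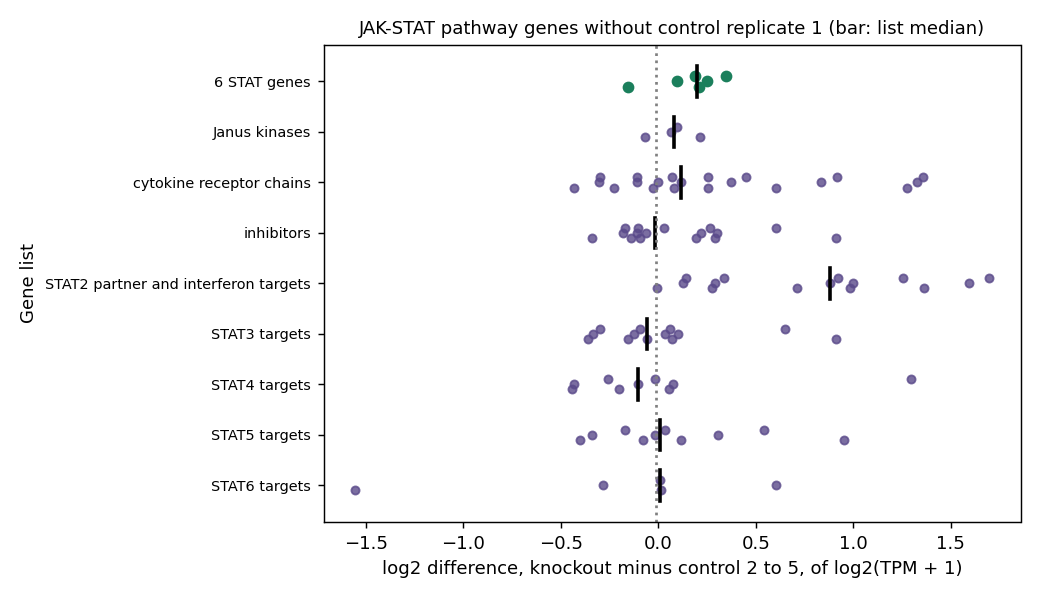
Log2 differences, knockout minus control replicates 2 to 5, of each tested gene (points) of the 6 STAT genes and of 8 pathway lists, with the list median as a bar and the median of all genes as a dotted line. The interferon targets have a median of 0.88 and the other lists lie near the dotted line.

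The promoters of the members were searched for the sites that STAT complexes bind, a search made after the list medians were known. Sequences were from RefSeq (GRCm38.p6), 250 bases before to 50 after an annotated start, with 9 promoters for the 6 genes. The motif of STAT dimers, TTC and GAA with 3 bases between, was in 0 of the 9 and in 8.3% of 32851 promoters. The form with 4 bases between was in 1 of the 9 (6.95% of all). The interferon response motif, GAAA and GAAA with 2 bases between and read on both strands, was in 2 of the 9 (3.44% of all); the other motifs read the same on both strands. Both promoters with the interferon motif are printed, with motifs in capitals.
Stat2, chr10:128270248-128270547, plus strand: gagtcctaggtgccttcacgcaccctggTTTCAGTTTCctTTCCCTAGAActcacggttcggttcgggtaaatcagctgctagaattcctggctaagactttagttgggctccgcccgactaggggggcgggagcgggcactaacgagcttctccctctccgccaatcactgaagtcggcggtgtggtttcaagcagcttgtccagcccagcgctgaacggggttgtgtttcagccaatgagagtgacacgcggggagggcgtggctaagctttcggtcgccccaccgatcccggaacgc
Stat4, inner start, chr1:52007990-52008289, plus strand: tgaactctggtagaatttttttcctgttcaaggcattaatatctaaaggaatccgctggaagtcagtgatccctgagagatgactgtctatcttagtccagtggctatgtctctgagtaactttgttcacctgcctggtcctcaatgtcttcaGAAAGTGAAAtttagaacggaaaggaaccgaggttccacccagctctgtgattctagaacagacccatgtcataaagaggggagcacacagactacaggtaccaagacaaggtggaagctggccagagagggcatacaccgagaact
The Stat2 promoter held the interferon motif 222 bases and the 4-base form 210 bases before the start, and the inner Stat4 promoter held the interferon motif 97 bases before the start. A match is a description of these letters only.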

How the data were processed

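RNA of CD4+ T cells from the colon was made into SMART-Seq2-type cDNA libraries, tagmented without keeping strand and read as pairs of 38 cycles, per the labels' protocols. The authors deposited TPM values, corrected for transcript length and scaled to the same total per library; per the submitters' processing notes the tools were Bowtie2 2.2.9, RSEM 1.2.31 and Trimmomatic 0.32 with GRCm38; settings are not given in the sources used here. TPM keeps no depth, so the counting error is unknown and no floor or counting interval is given. In TPM a few abundant transcripts lower all others.

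Groups and replicate numbers follow the titles. limma 3.58.1 in R 4.3.3 (lmFit, eBayes with trend) was run on log2(TPM + 1) over all genes that reached 1 TPM in 4 or more libraries, 11495 genes with 9 libraries and 11457 without control replicate 1, with Benjamini-Hochberg adjustment over all genes and a threshold of 0.05. Differences on this scale understate the change of low genes. Exact tests were two-sided permutation tests of single genes. The fit was tested on simulated data. The members and lists were chosen with earlier results of these data known. Named genes were the members, the 3 closest in pattern to each, and up to 3 of each pathway list by unadjusted p; a gene that this gives for Stat5a is not reported here. Other settings were 2 pseudocounts, 2 filters, 2 scalings, robust variance, library weights, a replicate block, a macrophage covariate, an exact test, Stat5a and Stat5b summed, and leaving out libraries; quantile scaling, the sum and second libraries left out, each without control replicate 1, and the ratios to Stat4 and to T cell markers were added after seeing the data. Plots used matplotlib 3.10.9 (Python 3.11.15).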

Additional observations from a re-analysis of the deposited data

Results flagged for a closer look

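Among 24 groups of library values examined, 3 held a library far from the others of its group. Chance alone gives about 1 in 20 where groups are independent, but these groups share values. All 3 were control replicate 1. Its Stat4 level of 8.13 TPM, its Stat6 level of 2.33 TPM and its ratio of Stat6 to Stat4 of 0.287 were each far below those of the other 4 controls. That library was known beforehand to stand apart, so the flags add nothing to this.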

How the results depend on the processing

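None of the 6 STAT genes passed the adjusted threshold under any setting run, with 9 libraries or without control replicate 1. The 2 filters, robust variance, the exact test and the summing of Stat5a and Stat5b leave a difference as it was. They could not change its sign. The replicate block with 9 libraries repeats the difference found without control replicate 5. With all of these counted, directions kept their sign in 188 of 194 comparisons with an alternative. The exceptions were Stat4 with 9 libraries (-0.060 with median-of-ratios scaling and -0.20 with library quality weights, and -0.16 to 0.73 with 1 library left out, the lowest without control replicate 1), Stat5b with library quality weights (-0.020), Stat4 without control replicate 1 with the macrophage covariate (0.012), and Stat5b without control replicate 1 and a second library (-0.069 to 0.16, the lowest without control replicate 2). At an unadjusted p under 0.05, between 0 and 1 of the genes passed with 9 libraries, and between 0 and 3 without control replicate 1. In the latter case 2 passed under the macrophage covariate or without control replicate 3 as well, and 3 with median-of-ratios scaling. The share of all genes that passed was not computed for the alternative settings. Leaving out any 1 of the 8 other libraries beside control replicate 1 gave 0.24 to 0.41 for Stat5a and -0.24 to -0.09 for Stat4.

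The number of genes called over the whole table was 2 with 9 libraries and 3 without control replicate 1. With 9 libraries it was 1 with a pseudocount of 5 and with quantile normalization, 0 with no filter, with a filter of 5 TPM, with the replicate block and with the exact test, and 521 with library quality weights, among them 0 of the members. Leaving out 1 library gave 0 to 3, with 3 without control replicate 1 and 0 without any other. Without control replicate 1 it was 0 with the replicate block and 1 with the macrophage covariate, and 0 to 15 when a second library was left out, with 15 without control replicate 2, 11 without knockout replicate 1 and 0 without control replicate 4 or 5. The replicate block gave no call for a member: with it the difference of Stat5a was 1.08 with 9 libraries and 0.29 without control replicate 1. In the block, a library without a same-numbered library in the other group adds nothing to the difference. Control replicate 5 thus did not enter either value, and knockout replicate 1 did not enter the value without control replicate 1. Same-numbered libraries did not deviate together from their group means (correlations -0.017, -0.093, -0.14 and -0.089). No knockout correlated best with the control of its own number. The control means included control replicate 1, so these values cannot show whether same-numbered libraries share more than a number. The Stat5b to Stat5a difference of -0.19 in ratio ranged from -0.23 to -0.16 with 1 library left out. Depth is unknown, so the counting error of low values could not be judged.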
